A study of Homo sapiens and Mus musculus with 24 samples.

Results

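DNA demethylation and methyl-CpG reader genes were followed as a group of 9 genes in DNMT3A-deficient intestinal epithelial cells. The group held the oxidases TET1, TET2 and TET3, the glycosylase TDG, the hemimethylated DNA readers UHRF1 and UHRF2, and the methyl-CpG binding repressors MBD1, MBD2 and ZBTB33, which encodes Kaiso. The rule named them by symbol for their known function and used no measured value, but the group was proposed with earlier results of these data known. Each symbol matched 1 gene identifier in both species, so that 9 of 58051 human and 9 of 29307 mouse genes were described. All 9 passed the filter on low counts in every comparison.

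Methyl groups are placed on CpG cytosines by the de novo methyltransferases DNMT3A and DNMT3B and copied to the daughter strand by DNMT1, which UHRF1 brings to newly replicated DNA. TET enzymes oxidize 5-methylcytosine stepwise, and TDG cuts out the most oxidized forms, which base excision repair then replaces with an unmodified cytosine. MBD1, MBD2 and Kaiso bind methylated CpG and bring in histone deacetylase complexes, such as NuRD in the case of MBD2. The comparisons asked how the transcripts of these erasers and readers stood when a writer of the mark was missing.

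RNA was sequenced from lines of Caco-2, a human colorectal adenocarcinoma line, and from EpCAM-positive colonic epithelial cells of mice. The Caco-2 groups were WT (4 libraries), ΔDNMT3A (4 libraries), a line expanded from a clone in which DNMT3A had been cut by CRISPR-Cas9, DNMT3A1 (3 libraries, as replicate 3 was not analysed here) and DNMT3A2 (4 libraries). The last pair are ΔDNMT3A cells that also carry a TY1-tagged long or short DNMT3A isoform in a piggyBac vector and were grown from single cells under puromycin. The edited lines are thus clones or derivatives of 1 clone, and the clone and the DNMT3A state cannot be told apart. Mice were 12 weeks old, the floxed line was on a C57BL/6J background and the Cre line came from a mixed C57BL/6JxSJL/J background, so that Dnmt3a ΔIEC mice may differ from Dnmt3a fl/fl mice in more than Dnmt3a. Dnmt3a fl/fl mice (n = 4) carried loxP sites around exons 13 to 17, and Dnmt3a ΔIEC mice (n = 4) carried the same alleles with Cre under the villin promoter, which is active in intestinal epithelium. Whether the Caco-2 replicates came from separate cultures is not stated, so p-values there measure only the spread between libraries.

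Reads counted on genes ranged from 22104408 to 42161299 in the 15 Caco-2 libraries and from 16943626 to 24921248 in the 8 mouse libraries. DNMT3A stood at 62.6 to 67.6 CPM (counts scaled by normalized library size) in WT, against 19.3 to 22.3 CPM in ΔDNMT3A and 36.4 to 38.4 CPM in DNMT3A1. In the libraries labelled DNMT3A2 it stood at 20.2 to 23.5 CPM, which overlaps ΔDNMT3A, with a log2 fold change of 0.07 (standard error 0.057, Benjamini-Hochberg adjusted p = 0.272, edgeR quasi-likelihood test). Gene counts cannot separate the edited gene from a transgene, and these libraries are called by their label throughout. At the protein level, the paper reports both re-expressed isoforms by immunoblot and in nuclei by immunofluorescence. In mice, Dnmt3a was 42.2 to 49.6 CPM in Dnmt3a ΔIEC and 84.2 to 102 CPM in Dnmt3a fl/fl (log2 fold change -1.03, standard error 0.091). In mouse libraries the 7 epithelial markers summed to 10850 to 15710 CPM, against 5.44 to 9.83 CPM for 5 immune and 7.87 to 13.4 CPM for 5 stromal and endothelial markers.

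All 9 genes had a promoter window in the RefSeq table for GRCh38.p14, with 15 windows in all. A window here is the 250 bases before an annotated start. The members' windows held 4 to 41 CpG dinucleotides, and the median over all 35116 windows was 11 (quartiles 3 and 23). Stretches of 3 of these windows that lie in no annotated exon are shown because UHRF1 was lower than WT in every DNMT3A-edited line, and because TET3 and UHRF2 were 2 of the members highest in the libraries labelled DNMT3A2. In UHRF1 the capitals mark a match to the core of E2F sites, the motif of a family of S-phase transcription factors. In the others they mark CpG. The UHRF1 stretch is chr19:4909894-4910143 (plus strand), TET3 is chr2:73984660-73984909 (plus strand) and UHRF2 is chr9:6412949-6413150 (plus strand).
UHRF1: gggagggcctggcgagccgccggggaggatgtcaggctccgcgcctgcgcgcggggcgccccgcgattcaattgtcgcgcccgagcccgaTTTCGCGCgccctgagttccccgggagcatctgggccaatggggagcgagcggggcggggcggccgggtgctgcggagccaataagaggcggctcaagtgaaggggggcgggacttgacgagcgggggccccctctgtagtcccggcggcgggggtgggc
TET3: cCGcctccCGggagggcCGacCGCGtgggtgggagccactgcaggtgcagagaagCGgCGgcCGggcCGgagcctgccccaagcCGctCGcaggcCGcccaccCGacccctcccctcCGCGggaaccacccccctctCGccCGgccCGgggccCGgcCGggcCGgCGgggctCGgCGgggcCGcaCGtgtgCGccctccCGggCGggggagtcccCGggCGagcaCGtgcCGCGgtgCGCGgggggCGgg
UHRF2: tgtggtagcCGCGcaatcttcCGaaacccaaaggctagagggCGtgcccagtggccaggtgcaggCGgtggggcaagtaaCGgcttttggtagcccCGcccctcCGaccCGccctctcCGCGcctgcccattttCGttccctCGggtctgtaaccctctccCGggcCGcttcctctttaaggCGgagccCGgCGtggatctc

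The TET3 window shown held 37 CpG, more than 96% of all windows, and the other TET3 window held 27, more than 82.3%. The windows of TET1 and TET2 ranged from 4 CpG at TET1 to 34 at TET2. TET1 windows were the poorest in CpG among the members, with 4 to 11 and an observed-to-expected ratio of 0.26 to 0.56. The 21 CpG of the full MBD2 window exceeded those of 69.8% of all windows. The E2F core was searched on both strands as TTTCCCGC, TTTCGCGC, TTTGCCGC and TTTGGCGC. It was found in the windows of UHRF1 alone among the 9 genes, in 2 of its 3 windows, and in 2.79% of all windows. No member window held the Kaiso site TCCTGCNA (3.74% of all windows) or the cyclic AMP response element TGACGTCA (1.65%) in these letters.

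Levels per length (TPM, computed from counts and exon length) ordered the members within each cell type. In WT Caco-2 cells UHRF1 was the highest at 79.6 ± 3.05 TPM (SD, n = 4), followed by ZBTB33 at 27.1 ± 1.32 and TDG at 24.7 ± 1.1 TPM. UHRF2, MBD2 and TET1 followed at 16.1, 15.4 and 15.1 TPM, with ranges that met one another. MBD1 (13.8 TPM), TET3 (11.1 TPM) and TET2 (5.77 ± 0.257 TPM) were the lowest. The range of MBD1 met that of MBD2 (13.64 to 13.91 against 13.65 to 16.72 TPM), and the ranges of TET3 and TET2 met no other. Colonic epithelium of Dnmt3a fl/fl mice had another order. Mbd2 was highest at 109 ± 7.08 TPM (SD, n = 4) and Mbd1 next at 95.9 ± 12.3 TPM, with overlapping ranges, and Tet1 was lowest at 0.405 ± 0.0814 TPM, from 32 to 50 counts per library. TET1 made up 47.2% ± 0.95 (SD, n = 4) of the summed TET level per length in WT Caco-2 cells and Tet1 made up 0.357% ± 0.0806 (SD, n = 4) in Dnmt3a fl/fl mice, where Tet3 held 56.6% and Tet2 43% of the sum.

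**Figure D1:**
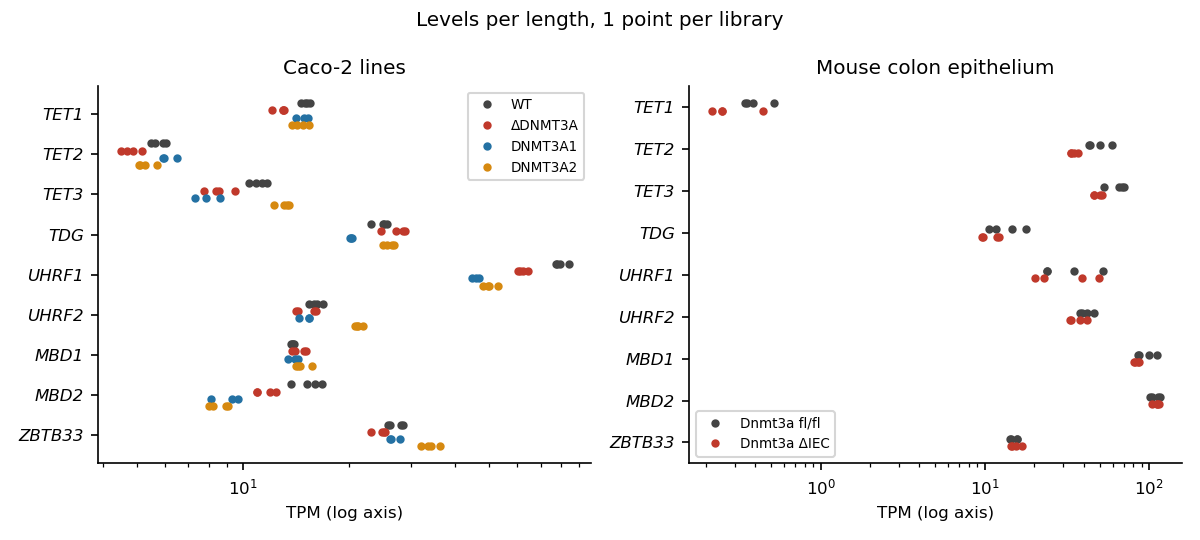
Levels per length of the 9 genes in TPM on a log axis, with 1 point per library, for the 4 Caco-2 lines (left) and the 2 mouse genotypes (right). UHRF1 lies highest in Caco-2 (79.6 TPM in WT) and Mbd2 highest in mouse colon epithelium (109 TPM in Dnmt3a fl/fl), where Tet1 lies below 1 TPM in every library.

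For UHRF1 and TDG, part of the sequence occurs elsewhere in the human genome, and reads that place in more than 1 position were not counted. Of 75-base tiles along the counted exons, 47.8% of UHRF1 tiles and 50% of TDG tiles also placed at another position with at most 2 mismatches, against at most 4.7% for each of the other 7 genes. Genes annotated at those other positions held few reads: the sum of each was at most 3.01% of the UHRF1 reads and at most 0.17% of the TDG reads. Shared reads were not counted at those positions either, so the low counts cannot show how much was transcribed there. How many reads of these 2 genes went uncounted for this was not measured, so their levels per length are uncertain.

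TET genes were lower in ΔDNMT3A than in WT. TET1 stood at 42.1, 42.8, 44.6 and 46.1 CPM in WT and at 36.5, 38.3, 36.6 and 38.2 CPM in ΔDNMT3A. It stood at 42, 45.6 and 44.4 CPM in DNMT3A1 and at 43.9, 40.5, 43.6 and 43.5 CPM in the libraries labelled DNMT3A2. All 4 ΔDNMT3A libraries lay below every library of the other groups, which overlapped one another. TET1 fell in ΔDNMT3A by 0.22 on the log2 scale (standard error 0.038, Benjamini-Hochberg adjusted p = 1.83e-05, edgeR quasi-likelihood test). Against ΔDNMT3A it was higher by 0.24 in DNMT3A1 and by 0.20 in the libraries labelled DNMT3A2 (adjusted p = 0.000154 and 4.01e-05, same edgeR test). Against WT, the interval of the difference was -0.06 to 0.12 for DNMT3A1 and -0.09 to 0.05 for the libraries labelled DNMT3A2, on the log2 scale.

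TET2, a TET enzyme without the DNA-binding CXXC domain of TET1, stood at 28, 30, 29.4 and 31.9 CPM in WT and at 23.4, 27.1, 24.2 and 25.3 CPM in ΔDNMT3A. It stood at 34.2, 31.5 and 31.2 CPM in DNMT3A1 and at 26.9, 26.5, 28.7 and 28.5 CPM in the libraries labelled DNMT3A2. ΔDNMT3A and WT did not overlap, and DNMT3A1 lay above ΔDNMT3A in all libraries. TET2 fell in ΔDNMT3A by 0.25 on the log2 scale (Benjamini-Hochberg adjusted p = 0.000161, edgeR quasi-likelihood test) and was 0.38 higher in DNMT3A1 than in ΔDNMT3A (adjusted p = 5.39e-06, same edgeR test). The difference of 0.15 between the libraries labelled DNMT3A2 and ΔDNMT3A passed the test (adjusted p = 0.0108, edgeR), but it was 0.12 without ΔDNMT3A replicate 1 and 0.07 with the trend of counts with gene length removed, and neither passed (adjusted p = 0.057 and 0.173, edgeR). Likewise, the higher TET2 in DNMT3A1 than in WT (0.14, adjusted p = 0.0168, edgeR) did not pass without WT replicate 1, without DNMT3A1 replicate 1, on library totals alone or with the length trend removed (0.12, 0.10, 0.11 and 0.03). The libraries labelled DNMT3A2 differed from WT in TET2 by -0.096, which did not pass. This difference passed on library totals alone (-0.155), without WT replicate 1 (-0.123) and with the length trend removed (-0.136, with or without the replicate block).

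TET3 separated both isoform lines. It stood at 41.3, 42.6, 40.5 and 45.9 CPM in WT and at 31.2, 37, 31.2 and 33.2 CPM in ΔDNMT3A. It stood at 30.9, 33.8 and 28.7 CPM in DNMT3A1 and at 51.3, 47.8, 50.6 and 53.7 CPM in the libraries labelled DNMT3A2. The libraries labelled DNMT3A2 were above all WT libraries, and ΔDNMT3A and DNMT3A1 were below all WT libraries and overlapped each other. TET3 fell by 0.36 on the log2 scale in ΔDNMT3A (standard error 0.05, Benjamini-Hochberg adjusted p = 1.06e-06, edgeR quasi-likelihood test). It was 0.63 higher in the libraries labelled DNMT3A2 than in ΔDNMT3A and 0.27 higher than in WT (adjusted p = 3.55e-11 and 4.59e-07, same edgeR test). DNMT3A1 differed from ΔDNMT3A by -0.08 (interval -0.21 to 0.05), which did not pass the test, and by -0.20 (adjusted p = 0.00449, edgeR) with the length trend removed. Between the isoform lines the log2 difference in TET3 was -0.71 for DNMT3A1 against the libraries labelled DNMT3A2 (adjusted p = 2.16e-12, edgeR).

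Per length, the summed TET level was 31.9 ± 1.04 TPM (SD, n = 4) in WT and 26.1 ± 1.39 TPM (SD, n = 4) in ΔDNMT3A. It was 28.8 ± 0.938 TPM (SD, n = 3) in DNMT3A1 and 32.9 ± 1.41 TPM (SD, n = 4) in the libraries labelled DNMT3A2. TET1 held 51.3% of this sum in DNMT3A1 and 44.2% in the libraries labelled DNMT3A2, and TET3 held 27.5% and 39.7%.

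TDG, which removes 5-formylcytosine and 5-carboxylcytosine, was the only member higher in ΔDNMT3A than in WT by the test. It stood at 37.9, 38.6, 35.9 and 39.5 CPM in WT and at 43, 44.4, 39.4 and 42.1 CPM in ΔDNMT3A. It stood at 31.6, 32 and 31.7 CPM in DNMT3A1 and at 41.4, 39, 40.2 and 41.2 CPM in the libraries labelled DNMT3A2. WT and ΔDNMT3A met at 39.4 CPM, and DNMT3A1 lay below every library of the other lines. TDG rose in ΔDNMT3A by 0.16 on the log2 scale (Benjamini-Hochberg adjusted p = 0.00139, edgeR quasi-likelihood test). It was lower in DNMT3A1 by 0.40 than in ΔDNMT3A and by 0.23 than in WT (adjusted p = 5.88e-07 and 9.14e-05, same edgeR test), and the libraries labelled DNMT3A2 differed from ΔDNMT3A by -0.06 (interval -0.14 to 0.02). TDG was 0.10 higher in the libraries labelled DNMT3A2 than in WT (adjusted p = 0.0182, edgeR), a call that was lost without WT replicate 3 (0.08), without replicate 4 of the labelled libraries (0.09), on library totals alone (0.04) and without a filter on low counts (0.09). Per unit of summed TET level, both in TPM, TDG was at 0.774 in WT and 1.05 in ΔDNMT3A, against 0.703 in DNMT3A1 and 0.79 in the libraries labelled DNMT3A2, with SDs of 0.0146 to 0.0452.

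UHRF1 was lower in each edited line and its levels ranked the 4 lines. UHRF1 stood at 124, 122, 137 and 131 CPM in WT and at 100, 102, 103 and 97.8 CPM in ΔDNMT3A. It stood at 77, 75.4 and 73.6 CPM in DNMT3A1 and at 82, 78.2, 83.2 and 83.5 CPM in the libraries labelled DNMT3A2. No group overlapped another, in the order WT, ΔDNMT3A, libraries labelled DNMT3A2 and DNMT3A1. UHRF1 fell in ΔDNMT3A by 0.34 on the log2 scale (standard error 0.033, Benjamini-Hochberg adjusted p = 2.65e-09, edgeR quasi-likelihood test). Against ΔDNMT3A it was lower by a further 0.41 in DNMT3A1 and 0.30 in the libraries labelled DNMT3A2 (adjusted p = 3.03e-09 and 1.9e-09, same edgeR test), so that DNMT3A1 had 0.598 and the libraries labelled DNMT3A2 had 0.642 of the WT level. The level in DNMT3A1 was lower by 0.115 than in the libraries labelled DNMT3A2 (adjusted p = 0.00335, edgeR).

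UHRF2, a paralog of UHRF1 that does not replace it in DNMT1 recruitment, did not follow this order. It stood at 49.9, 51.7, 49.8 and 48.8 CPM in WT, at 48.6, 44.4, 46.4 and 49.7 CPM in ΔDNMT3A and at 48.8, 45.9 and 48.8 CPM in DNMT3A1, and these 3 groups overlapped. The libraries labelled DNMT3A2 stood apart at 66.7, 66.8, 66.3 and 67.5 CPM. UHRF2 was higher there by 0.50 than in ΔDNMT3A and by 0.43 than in WT on the log2 scale (Benjamini-Hochberg adjusted p = 1.37e-11 and 5.42e-13, edgeR quasi-likelihood test). The difference of ΔDNMT3A from WT was -0.07 (interval -0.15 to 0.004) and that of DNMT3A1 from ΔDNMT3A was 0.03 (interval -0.07 to 0.12). The former passed only on library totals alone (-0.119) and without ΔDNMT3A replicate 4 (-0.095). The level of UHRF1 per unit of UHRF2, both in TPM, was 4.95 ± 0.338 (SD, n = 4) in WT and 4.12 ± 0.28 (n = 4) in ΔDNMT3A. It was 3.04 ± 0.13 (n = 3) in DNMT3A1 and 2.36 ± 0.0708 (n = 4) in the libraries labelled DNMT3A2.

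**Figure D2:**
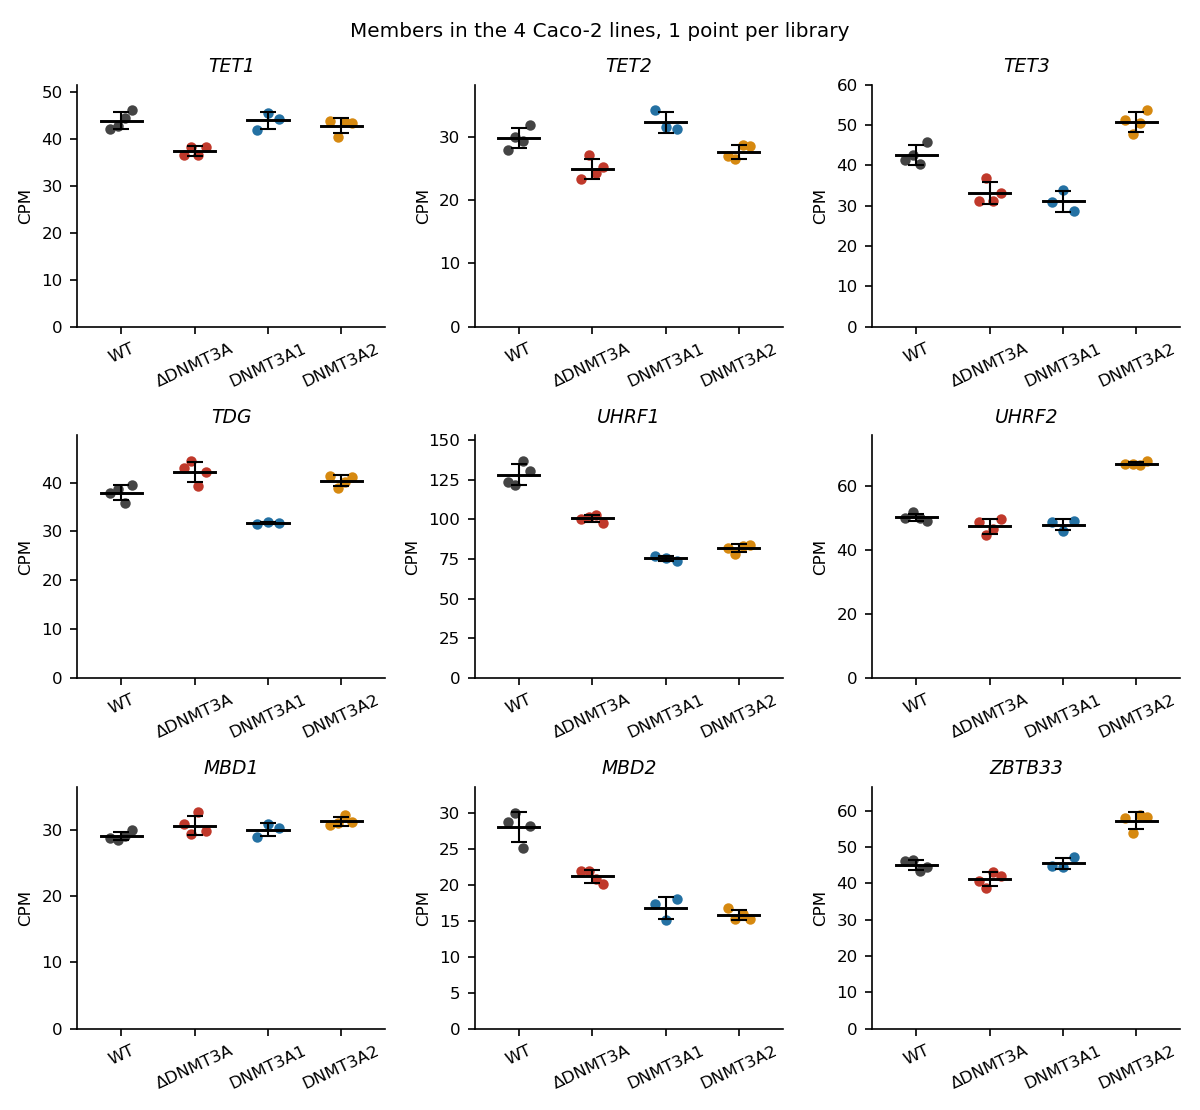
Levels of the 9 genes in CPM in the 4 Caco-2 lines, with 1 point per library and a bar and whiskers for the mean and SD (n = 4, and n = 3 for DNMT3A1). UHRF1 and MBD2 lie lower in each edited line than in WT, and TET3, UHRF2 and ZBTB33 lie highest in the libraries labelled DNMT3A2.

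MBD2, the methyl-CpG binding subunit of NuRD, was likewise lower in each edited line. MBD2 stood at 28.8, 29.9, 25.1 and 28.2 CPM in WT and at 21.9, 21.9, 20.8 and 20.1 CPM in ΔDNMT3A. It stood at 17.3, 15.1 and 18 CPM in DNMT3A1 and at 16.8, 15.2, 15.9 and 15.3 CPM in the libraries labelled DNMT3A2. Both isoform lines lay below all ΔDNMT3A libraries, which lay below all WT libraries, and the isoform lines overlapped. MBD2 fell by 0.39 on the log2 scale in ΔDNMT3A (standard error 0.054, Benjamini-Hochberg adjusted p = 8.73e-07, edgeR quasi-likelihood test). It was lower again by 0.32 in DNMT3A1 and by 0.42 in the libraries labelled DNMT3A2 than in ΔDNMT3A (adjusted p = 8.8e-05 and 3.06e-07, same edgeR test). The libraries labelled DNMT3A2 had 0.569 of the WT level, and the interval of the difference between the isoform lines was -0.03 to 0.23.

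MBD1, which also binds unmethylated CpG through a CXXC domain, stood between 28.5 and 32.7 CPM in all 15 libraries. Its difference of ΔDNMT3A from WT was 0.08 (interval -0.002 to 0.17) and that of DNMT3A1 from ΔDNMT3A was -0.02 (interval -0.12 to 0.08). MBD1 was higher than WT by the test only in the libraries labelled DNMT3A2 (0.12, Benjamini-Hochberg adjusted p = 0.0133, edgeR quasi-likelihood test), a call that was lost on library totals alone (0.06) and without a filter on low counts (0.11). The difference of ΔDNMT3A from WT passed only without ΔDNMT3A replicate 2 (0.107) and with the replicate block and the length trend removed (0.101). Per length, MBD1 was 0.901 ± 0.0757 (SD, n = 4) of MBD2 in WT and 1.25 ± 0.0863 (n = 4) in ΔDNMT3A. The ratio was 1.56 ± 0.186 (n = 3) in DNMT3A1 and 1.72 ± 0.0897 (n = 4) in the libraries labelled DNMT3A2.

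ZBTB33, encoding the zinc finger repressor Kaiso, stood at 46.2, 46.4, 43.4 and 44.4 CPM in WT and at 40.7, 38.8, 43.1 and 42.1 CPM in ΔDNMT3A. It stood at 44.7, 44.5 and 47.4 CPM in DNMT3A1 and at 58, 53.8, 58.8 and 58.4 CPM in the libraries labelled DNMT3A2. The last group lay above all other libraries, and DNMT3A1 overlapped WT. ZBTB33 fell by 0.12 on the log2 scale in ΔDNMT3A (Benjamini-Hochberg adjusted p = 0.00961, edgeR quasi-likelihood test), a call that was lost without ΔDNMT3A replicate 2 (-0.09, adjusted p = 0.0558, edgeR). Against ΔDNMT3A it was higher by 0.16 in DNMT3A1 and by 0.48 in the libraries labelled DNMT3A2 (adjusted p = 0.00822 and 6.54e-11, same edgeR test).

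The counts of members that passed the test were read against those over all genes. In ΔDNMT3A against WT, 7 of 9 members passed, and 62.2% of the 16654 genes tested passed. Of the 7, 1 was higher (31.2% of all genes) and 6 were lower (31% of all genes), and 6 members did not overlap between the groups (55.1% of all genes). In DNMT3A1 against ΔDNMT3A, 6 of 9 passed (60.7% of all genes), 3 higher (30.4%) and 3 lower (30.3%), and 6 did not overlap (59.7%). In the libraries labelled DNMT3A2 against ΔDNMT3A, 7 of 9 passed (67.9% of all genes), 5 higher (33.8%) and 2 lower (34.1%), and 6 did not overlap (61.1%). Both comparisons share the ΔDNMT3A libraries.

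Against WT, 5 of 9 members passed in DNMT3A1 (65.3% of all genes), 1 higher (32.6%) and 4 lower (32.7%), and 4 did not overlap (63.2%). In the libraries labelled DNMT3A2, 7 of 9 passed against WT (68.7% of all genes), 5 higher (34.3%) and 2 lower (34.4%), and 6 did not overlap (61.3%). Between the isoform lines 6 of 9 passed (68.5% of all genes), 1 higher in DNMT3A1 (34.5%) and 5 lower (33.9%), and 6 did not overlap (66.2%). The members' median size of the log2 difference in ΔDNMT3A against WT was 0.22, and that of all genes was 0.24. No member reached a log2 fold change of 1 in any of the 6 human comparisons. Over all genes, 8.51%, 8.32%, 11.9%, 12%, 11.1% and 13.1% did so and passed the test, in the order of the comparisons given here. Sequencing lanes held libraries of every line, and within each lane alone all 76 differences of members that had passed kept their sign. These values come from the same libraries that gave the calls, and the comparisons share libraries, so they are no independent check. The TET2 difference of DNMT3A1 from WT was 0.028 in lane 6, where DNMT3A1 had 1 library.

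**Figure D3:**
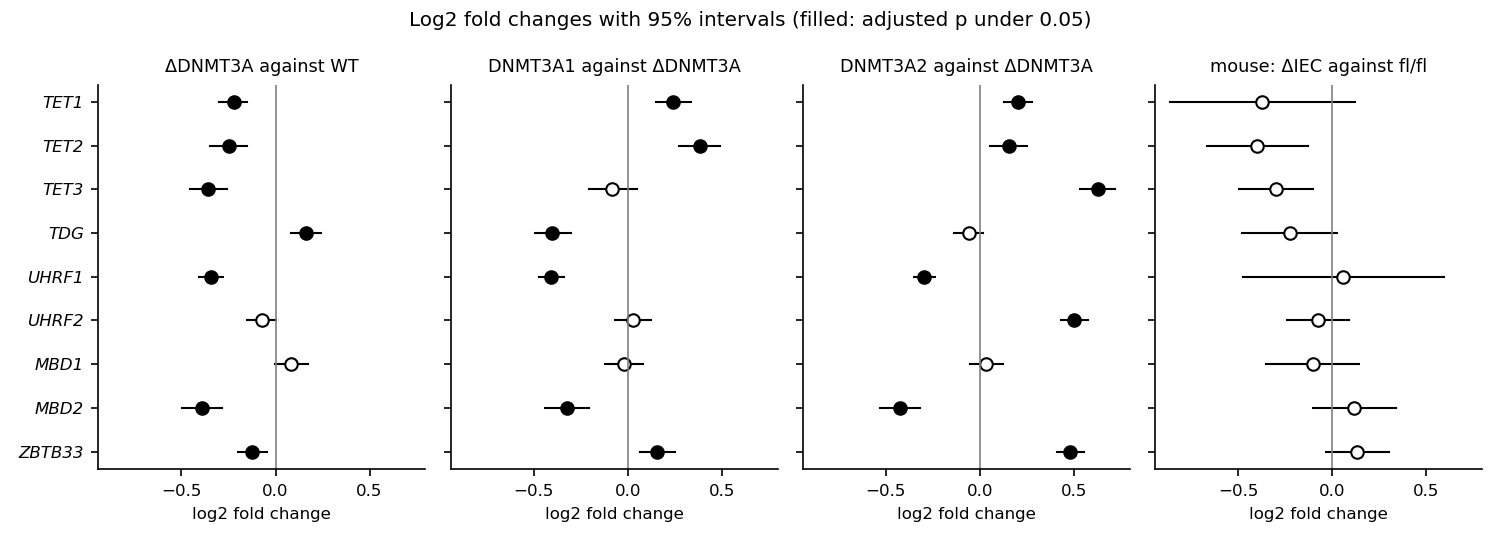
Log2 fold changes of the 9 genes with 95% intervals in 3 Caco-2 comparisons and in mouse colon epithelium, on a common axis, with filled points for an adjusted p under 0.05. UHRF1 and MBD2 lie below 0 in all 3 Caco-2 panels, and no mouse point is filled.

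The 25 tested genes on each side of a member on its chromosome were set beside it. For MBD2 in ΔDNMT3A against WT, these 50 genes had a median log2 fold change of 0.04 (quartiles -0.09 and 0.24), against -0.39 for MBD2. For UHRF1 the neighbours' median was -0.14 (quartiles -0.29 and 0.03), on the same side as its -0.34. For TET1 it was 0.16, opposite to its -0.22. For TET3 in the libraries labelled DNMT3A2 against ΔDNMT3A the neighbours' median was -0.002 (quartiles -0.47 and 0.14), against 0.63 for TET3. In that comparison the neighbours' median was 0.17 for TET1 and 0.12 for TET2, close to the 0.20 and 0.15 of these members. It was 0.19 for UHRF2 (member 0.50), 0.12 for ZBTB33 (0.48), 0.04 for UHRF1 (-0.30) and 0.07 for MBD2 (-0.42).

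Among 13756 genes with a mean of at least 1 CPM, the genes whose log2 CPM followed UHRF1 most closely over the 15 Caco-2 libraries were NELFCD and ANKLE1 (Pearson r = 0.99 and 0.989). For TET3 they were USP6NL and CHD7 (0.977 and 0.975), for MBD2 UNC119 and TEX264 (0.974 each), for UHRF2 COPS2 and MAPK6 (0.977 each), for ZBTB33 CDKAL1 and CCNG1 (0.981 and 0.977) and for TDG SAFB2 and CACYBP (0.977 and 0.965). For TET1 they were TRIM71 and SHANK2 (0.939 and 0.937) and for TET2 ENSG00000280099 and KRBOX4 (0.953 and 0.927). The likeness was lowest for MBD1, with ZNHIT2 and AGXT at 0.843 and 0.81. These libraries fall into 4 lines, so that the values describe patterns over 4 lines, picked as the highest of many.

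UHRF1 is a gene of cycling cells, and a list of 16 S-phase and cycling genes was set beside it. The list summed to 3853 to 3961 CPM in WT, 3486 to 3576 CPM in ΔDNMT3A and 3125 to 3228 CPM in DNMT3A1, the order that UHRF1 followed. The sum in the libraries labelled DNMT3A2 was 3665 to 3778 CPM, above ΔDNMT3A, where UHRF1 was lower than in ΔDNMT3A. In ΔDNMT3A against WT, 13 of the 16 genes passed the test (3 higher, 10 lower, 81.2% against 62.2% of all genes), with E2F1 at -0.60, MCM7, a helicase subunit, at -0.64 and CDC6, a licensing factor, at 0.26. In DNMT3A1 against ΔDNMT3A, 12 passed (75% against 60.7% of all genes). All 12 were lower (30.3% of all genes), with RRM2 at -0.59. In the libraries labelled DNMT3A2 against ΔDNMT3A, 12 passed (75% against 67.9% of all genes). Of these, 7 were higher (33.8% of all genes) and 5 lower (34.1%), with MCM3 at 0.345 and PCNA at -0.27. The part of cell cycling in the UHRF1 levels was not tested.

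**Figure D4:**
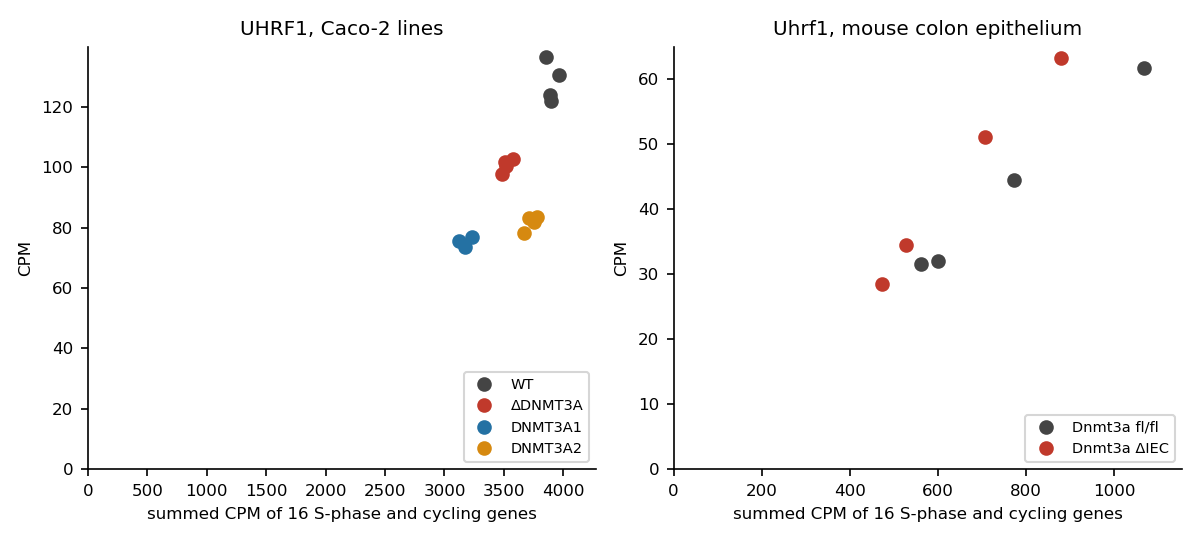
UHRF1 level in CPM against the summed CPM of 16 S-phase and cycling genes, 1 point per library, in the Caco-2 lines (left) and mouse colon epithelium (right). The libraries labelled DNMT3A2 lie to the right of ΔDNMT3A (3665 to 3778 against 3486 to 3576 CPM) and below it, and in mice both genotypes spread along the list.

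Of 5 lists of 50 pathway genes, 48 genes were tested in Caco-2 cells and 35 passed in ΔDNMT3A against WT (18 higher, 17 lower), which is 72.9% against 62.2% of all genes. The lists below passed at 55.6% to 88.9%, and nothing particular to a list is read from these shares. Among the methyltransferases and their cofactors, 5 of 8 passed. DNMT3A was lower by 1.65, DNMT3B, the other de novo enzyme, by 0.48, CDCA7 by 0.36 and the remodeler HELLS by 0.34 on the log2 scale, and USP7, which stabilizes DNMT1 and UHRF1, was 0.12 higher. The log2 fold change of DNMT1 was -0.03. Relative to ΔDNMT3A, the libraries labelled DNMT3A2 had higher CDCA7 (0.71), HELLS (0.38), DNMT3B (0.34), USP7 (0.31) and DNMT1 (0.25), and none was lower. In DNMT3A1 against ΔDNMT3A, CDCA7L (1.26), DNMT3L (1.13), DNMT3A (0.87), CDCA7 (0.16) and DNMT3B (0.10) were higher and none was lower.

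Of 12 NuRD genes, the complex that MBD2 joins, 10 passed in ΔDNMT3A against WT (5 higher, 5 lower). The chromatin remodeler CHD3 fell by 0.93 and the subunit GATAD2B fell by 0.47, while GATAD2A rose by 0.32. Mean GATAD2B was 10.2 CPM in ΔDNMT3A and 14.15 CPM in WT, and mean GATAD2A was 123.9 and 100.2 CPM. CHD3 was higher than in ΔDNMT3A by 0.82 in DNMT3A1 and by 0.96 in the libraries labelled DNMT3A2, where MBD2 was lower still. CHD4, the more general remodeler of NuRD, differed by -0.03, 0.02 and -0.01 in these comparisons. GATAD2A was lower than ΔDNMT3A in both isoform lines (-0.57 and -0.35).

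Base excision repair genes, which here include other glycosylases that start repair alongside TDG and the factors that finish it, had 7 of 10 past the threshold in ΔDNMT3A against WT. The glycosylase UNG, which removes uracil, fell by 0.40. PARP1, which is not a glycosylase, fell by 0.33, and POLB, the gap-filling polymerase, rose by 0.23. Of 9 tested genes of TET partners and 2-oxoglutarate supply, 6 were higher and 2 lower. SALL4 was higher by 1.42 and IDH2, which makes 2-oxoglutarate in mitochondria, by 0.37, whereas CXXC5, which can bind TET2, was lower by 0.32. In the same list, mean IDH1 was 528.8 CPM in ΔDNMT3A and 535.8 CPM in WT, against 39.47 and 30.66 CPM for IDH2. Mean OGDH was 127.6 CPM in ΔDNMT3A and 98.92 CPM in WT. IDH3A was lower in DNMT3A1 and higher in the libraries labelled DNMT3A2 than in ΔDNMT3A (-0.70 and 0.20). Of 9 tested genes of the MBD family, other methyl-CpG readers and their partners, 2 were higher and 3 lower in ΔDNMT3A. Not every MBD family protein binds methylated CpG. The histone methyltransferase SETDB1 was lower by 0.19. Relative to ΔDNMT3A, SETDB1 was higher by 0.38 in DNMT3A1 and by 0.41 in the libraries labelled DNMT3A2, and MBD5 by 0.37 and 0.47, while MBD3 was lower by 0.38 and 0.28.

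In mouse colonic epithelium, no member passed the test in Dnmt3a ΔIEC against Dnmt3a fl/fl mice with edgeR's quasi-likelihood test, and 0.691% of the 14626 genes tested passed. At an unadjusted p under 0.05 from the same fit across all genes, 2 members (Tet2 and Tet3) and 2058 genes stood below the threshold, and DESeq2 called no member either. Groups did not overlap for 2 of 9 members, Tet3 and Zbtb33, and for 10.2% of all genes. The leukocyte marker Ptprc stood at 3.48 to 4.88 CPM in Dnmt3a ΔIEC and at 1.35 to 2.5 CPM in Dnmt3a fl/fl mice, with no overlap (log2 fold change 1.13, Benjamini-Hochberg adjusted p = 0.0642, edgeR quasi-likelihood test). The other 4 immune markers overlapped between the genotypes, and the 5 together summed to 7.95 to 9.83 and 5.44 to 9.29 CPM. The part of leukocyte RNA in the member differences was not tested. In these bulk samples, fewer cells that make a transcript and less of it per cell cannot be told apart.

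Tet3 was 234, 202, 232 and 254 CPM in Dnmt3a fl/fl and 167, 191, 201 and 196 CPM in Dnmt3a ΔIEC. The lowest Dnmt3a fl/fl mouse lay just above the highest Dnmt3a ΔIEC mouse. The log2 fold change was -0.30 (interval -0.49 to -0.10, Benjamini-Hochberg adjusted p = 0.231, edgeR quasi-likelihood test, and 0.0924 from DESeq2). Tet2 was 153, 220, 163 and 156 CPM in Dnmt3a fl/fl and 119, 121, 137 and 153 CPM in Dnmt3a ΔIEC, with the groups meeting at 153 CPM. Its log2 fold change was -0.40 (interval -0.66 to -0.13, adjusted p = 0.244, edgeR), and -0.26 without Dnmt3a fl/fl replicate 2. With the trend of counts with gene length removed, the log2 fold changes were -0.26 for Tet2 and -0.16 for Tet3.

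Tet1 had 20 to 50 counts per library in both genotypes, so that its log2 fold change of -0.37 had an interval from -0.86 to 0.12. The summed level of Tet1, Tet2 and Tet3 per length ranged from 80.3 to 85.6 TPM in Dnmt3a ΔIEC and from 110 to 121 TPM in Dnmt3a fl/fl mice. This sum was looked at after the levels of Tet2 and Tet3 were known. TPM does not use the normalized library sizes of CPM and set the genotypes further apart. Mean Tet3 was 48.6 against 64.3 TPM but 188.5 against 230.5 CPM in Dnmt3a ΔIEC against Dnmt3a fl/fl. Mean Tet2 was 34.6 against 48.9 TPM but 132.3 against 172.9 CPM. Tdg was 17.4 to 19.8 CPM in Dnmt3a ΔIEC and 18.1 to 26.4 CPM in Dnmt3a fl/fl mice (log2 fold change -0.23, interval -0.48 to 0.03). Mouse reads were counted without regard to strand, and 6.83% of the Tdg exon length overlaps exons of the opposite-strand gene Glt8d2, so that the reads of the pair cannot be told apart there.

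Uhrf1 spread widely within both genotypes. It stood at 44.5, 32, 61.7 and 31.5 CPM in Dnmt3a fl/fl and at 63.1, 51.1, 28.5 and 34.5 CPM in Dnmt3a ΔIEC, and the groups overlapped over most of their range. The log2 fold change was 0.06, with an interval from -0.47 to 0.59. The 16 cycling genes summed to 773, 600, 1068 and 560 CPM in the same Dnmt3a fl/fl mice and to 880, 706, 473 and 527 CPM in the Dnmt3a ΔIEC mice. The libraries with the highest sum of their genotype also had the highest Uhrf1. The part of cycling cells in the Uhrf1 level was not tested. Uhrf2 differed by -0.08 (interval -0.24 to 0.09).

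Mbd2, the highest member per length in this tissue, was 99.4, 116, 90.1 and 115 CPM in Dnmt3a fl/fl and 100, 109, 119 and 131 CPM in Dnmt3a ΔIEC, with overlapping groups. Its log2 fold change was 0.12 (interval -0.10 to 0.34), and that of Mbd1 was -0.10 (interval -0.35 to 0.15). Zbtb33 was 22.3 to 23.8 CPM in Dnmt3a fl/fl and 23.8 to 26.7 CPM in Dnmt3a ΔIEC mice. The highest Dnmt3a fl/fl mouse (23.79 CPM) lay just below the lowest Dnmt3a ΔIEC mouse (23.81 CPM), and the log2 fold change of 0.13 did not pass (interval -0.03 to 0.30, Benjamini-Hochberg adjusted p = 0.511, edgeR quasi-likelihood test). Of the Zbtb33 exon length, 9.25% overlaps exons of the opposite-strand gene Tmem255a. Of the 46 pathway genes tested in mice, 1 passed, Dnmt3a itself, and Dnmt3b differed by 0.33 (adjusted p = 0.439, edgeR).

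**Figure D5:**
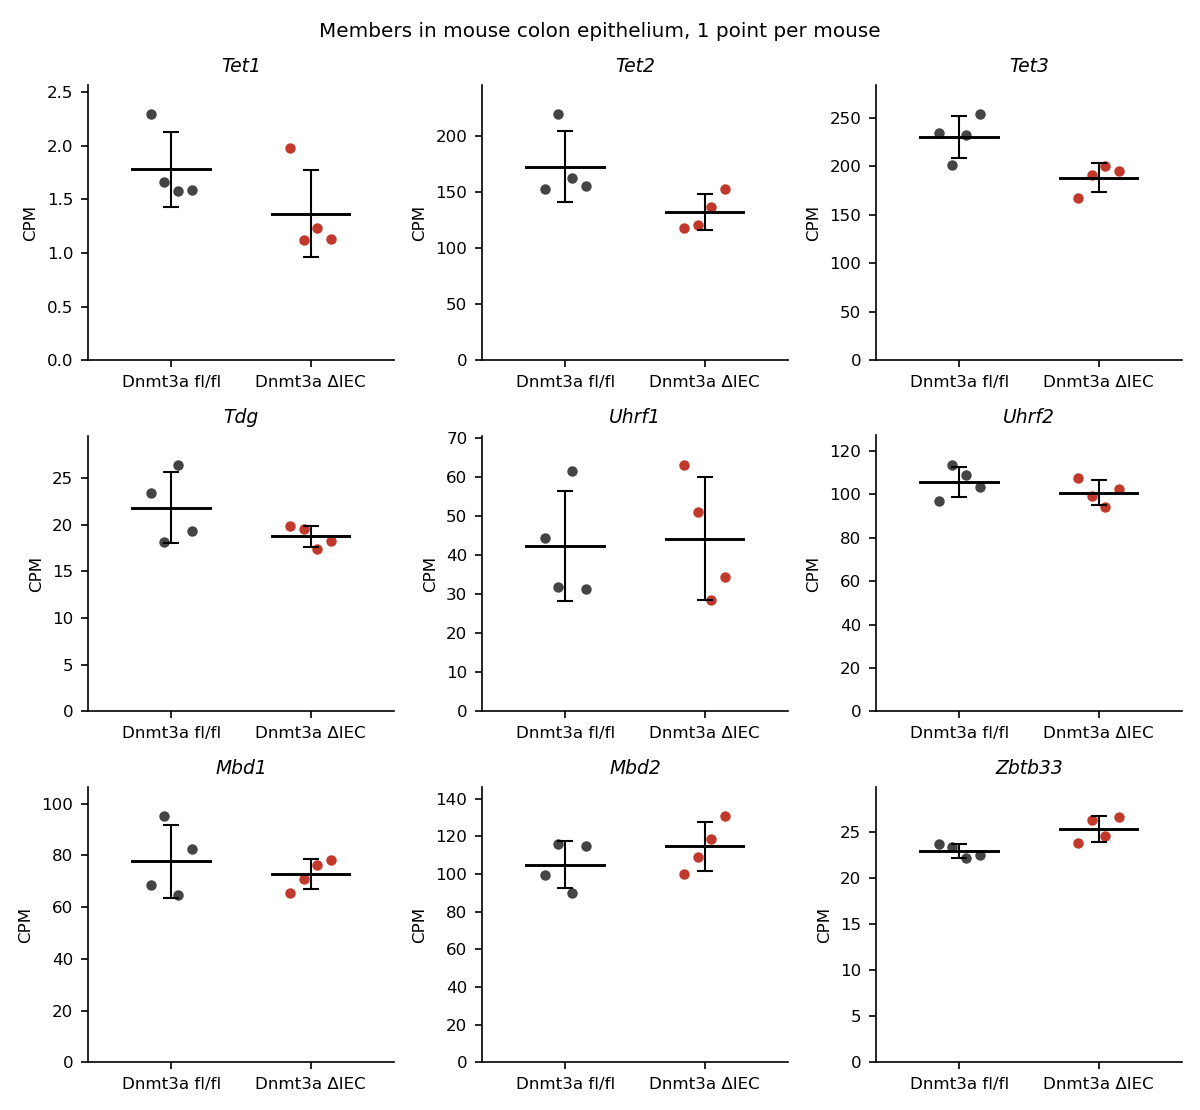
Levels of the 9 genes in CPM in colonic epithelium by genotype, Dnmt3a fl/fl or Dnmt3a ΔIEC, with 1 point per mouse and a bar and whiskers for the mean and SD (n = 4 each). Tet3 does not overlap between the genotypes (202 to 254 against 167 to 201 CPM), and Uhrf1 spreads from 28.5 to 63.1 CPM within Dnmt3a ΔIEC.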

How the data were processed

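Stranded total RNA libraries were sequenced as paired reads of 75 bases (Caco-2) or 50 bases (mouse). The authors deposited raw counts per gene. Per the labels and file headers, reads were trimmed with Trim Galore 0.4.4, aligned with STAR 2.5.2b to GRCh38 or GRCm38 and counted with featureCounts (1.5.2 in the submitters' processing notes), on the reverse strand for Caco-2 and without regard to strand for mouse. Multiply placed reads were not counted, as no option in the headers included them. The counts were the only values used, and no column outside the labelled samples was present.

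Samples were grouped by their labels. Human identifiers were paired with symbols for 98.1% of 58051 genes. Each pair of groups was fitted alone in edgeR 4.0.16 (R 4.3.3) with TMM library sizes, the filterByExpr filter and the quasi-likelihood test, and p-values were adjusted by Benjamini-Hochberg over all genes tested, with a threshold of 0.05. Standard errors of edgeR differences are the size of the log2 fold change divided by the square root of the test's F statistic. Intervals are normal 95% intervals from these standard errors, and are somewhat narrower than the p-values of the test imply. CPM used TMM library sizes and TPM used the deposited exon lengths. Reads are not independent molecules after amplification, so counting precision is an upper limit. The depth, from 16943626 to 42161299 counts per library, gave at least 336 counts per library for every Caco-2 member and 20 to 50 for mouse Tet1. Replicates differed by more than sampling noise, so none was counted as a duplicate.

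Alternatives were DESeq2 1.42.0, other scalings, no filter, a length correction, a lane term, a replicate block, 1 fit over all Caco-2 groups, a fold threshold and leaving out each replicate. Values within each sequencing lane were an alternative chosen after seeing the data. The fit was tested on counts simulated from the fitted model with changes of 1 on the log2 scale, a size that no member reached in Caco-2 cells. It cannot show how well smaller changes are found. Copies of exon sequence were found with minimap2 2.31 and 75-base tiles every 25 bases. The members and lists were chosen with earlier results of these data known. All 9 members are named, with pathway genes that are their partners or opponents and, for each member, the 2 genes most like it. Protein sequences and mouse promoters were not used here.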

Additional observations from a re-analysis of the deposited data

Results flagged for a closer look

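In 5 of 45 groups of libraries, 1 library stood far from the others for a member, and chance sets apart about 1 in 20 groups. In the libraries labelled DNMT3A2, replicate 2 was lowest for TET1 (40.53 CPM, others 43.48 to 43.92) and for ZBTB33 (53.81 CPM, others 58.03 to 58.77). In mice, Tet1 was highest in replicate 1 of Dnmt3a ΔIEC (1.978 CPM, others 1.126 to 1.236) and in replicate 1 of Dnmt3a fl/fl (2.296 CPM, others 1.577 to 1.661). Tet2 was highest in Dnmt3a fl/fl replicate 2 (219.9 CPM, others 152.9 to 162.9).

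For 6 of 9 members, DNMT3A1 and the libraries labelled DNMT3A2 differed when compared directly. The log2 difference of DNMT3A1 minus the libraries labelled DNMT3A2 was -0.71 for TET3, -0.477 for UHRF2, -0.344 for TDG, -0.326 for ZBTB33, -0.115 for UHRF1 and 0.227 for TET2, and each passed edgeR's quasi-likelihood test. These lines are separate clones, and the clone and the isoform cannot be told apart.

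ZBTB33 stood lower in every ΔDNMT3A library than in WT (log2 fold change -0.123) and Zbtb33 stood higher in every Dnmt3a ΔIEC mouse than in Dnmt3a fl/fl (0.134). The mouse value did not pass, and the difference between both systems was not tested.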

How the results depend on the processing

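Leaving aside the fold threshold, of 1008 refitted member values 958 kept their direction and their side of the threshold, 15 lost a call, 14 gained one and 21 changed sign. None of the 21 had been called. Of the lost calls, 13 are given beside their genes in the report. The other 2 are TET2 with the replicate block and the length trend removed, in the libraries labelled DNMT3A2 against ΔDNMT3A (0.07) and in DNMT3A1 against WT (0.03). Their cause was not tested. Some gained calls are not given beside their genes. TDG passed in the libraries labelled DNMT3A2 against ΔDNMT3A without ΔDNMT3A replicate 3 (-0.092). TET3 passed in DNMT3A1 against ΔDNMT3A with the replicate block and the length trend removed (-0.212). Between the isoform lines, MBD1 passed with the length trend removed (-0.137, and -0.125 with the block as well). MBD2 passed there without DNMT3A1 replicate 2 (0.165).

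The largest value that changed sign was that of mouse Mbd1 (-0.103). For DNMT3A1 against ΔDNMT3A, MBD1 was 0.004 on library totals alone and 0.014 with the replicate block, and ranged from -0.044 to 0.010 on leaving out each replicate. UHRF2 was -0.065 with the length trend removed, -0.066 with the block as well, and ranged from -0.003 to 0.051. TET1 against WT was -0.005 (library totals alone) and -0.007 (length trend removed) in DNMT3A1. In the libraries labelled DNMT3A2 it was 0.018 with the length trend removed, with or without the block, and between the isoform lines -0.024 and -0.021. ZBTB33 in DNMT3A1 against WT was -0.003 with the length trend removed and -0.018 with the block as well. In mice Uhrf2 was 0.017 with the length trend removed, Uhrf1 ranged from -0.163 to 0.294 and Mbd1 from -0.183 to 0.012 on leaving out each replicate.

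With a log2 fold change of at least 1 required, 0 members passed in each Caco-2 comparison, and 2, 2, 0, 3, 3 and 2 pathway genes passed in ΔDNMT3A against WT, DNMT3A1 and the libraries labelled DNMT3A2 against ΔDNMT3A, then each against WT and against each other. In mice DESeq2 called 2 pathway genes and 407 genes in all (63.9% higher), against 1 and 101 (87.1% higher) by edgeR.

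With the replicate block, 7, 6, 7, 5, 7 and 6 members passed in these Caco-2 comparisons, the same counts as without it. Equal numbers did not pair the libraries (correlations of their deviations -0.12 to 0.096 over 21 pairs). Depth limits mouse Tet1 alone among the members.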
